A study of Mus musculus with 6 samples.

Results

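Pde7b encodes a phosphodiesterase specific for cyclic AMP (cAMP). It is 1 of the 1228 genes in a table of gene expression from Bv2 cells, an immortalised mouse microglial line labelled wild type. Its row was found by its symbol (ENSMUSG00000019990), and the gene was chosen by its large difference between the groups in these same values. That difference is therefore described below without a test. RNA was sequenced from 3 control samples and from 3 samples after oxygen and glucose deprivation with reperfusion (OGD/R), a culture model of ischemia followed by the return of oxygen and nutrients. The OGD/R cells had 30 min in nitrogen, 2 h at 1% oxygen in medium without glucose and serum, and 24 h of reperfusion in standard medium. The protocol also speaks of an infection 72 h before the deprivation. It does not say whether that applied to these samples, or whether the control cells had a change of medium. If the groups differed in either, that and OGD/R cannot be told apart. Nothing states that the 3 samples of a group were separate cultures, so their spread may be technical. No batch is named in the labels. The table holds no gene with similar means in both groups, so its genes had been picked for a difference.

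Cyclic AMP is made by adenylyl cyclases when receptors coupled to the G protein Gs are active, and receptors coupled to Gi hold the cyclases back. It acts through protein kinase A, the Epac exchange factors and cyclic nucleotide-gated channels, and protein kinase A in turn activates transcription factors of the CREB family. Phosphodiesterases end the signal by hydrolysing the nucleotide. In microglia and macrophages a rise in cAMP generally restrains the release of inflammatory cytokines. The product of Pde7b has a high affinity for cAMP, is insensitive to the PDE4 inhibitor rolipram, and is best known from the striatum.

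Pde7b lies on the minus strand of chromosome 10 of GRCm38, from 20398004 to 20725078. GENCODE M21 lists 8 transcripts of the gene, of which 4 are protein coding. The longest coding transcript, Pde7b-201, has 13 exons and 4137 nt and starts at the outer end of the locus. The coding transcript Pde7b-206 starts close to that end, at 20724696. The coding transcripts Pde7b-202 and Pde7b-205 start at 20548470 and 20548328, the second of them 176750 nt further in than Pde7b-201. The table holds 1 value per gene and library, so it does not show which start was used. All exons together cover 12444 nt, since they include transcripts with retained introns. FPKM divides the counted fragments by the length of the gene and the size of the library. It depends on this length for the level of a gene, but not for the ratio between groups.

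RefSeq's table of promoters on GRCm38.p6 gave 1 start for Pde7b, the inner one at 20548328, with a window of 300 bases from 250 before to 50 after the start. The stretch of that window upstream of the start that no annotated exon covers follows, together with the same for Pde4b, at the first of its 4 listed starts, and for Nr4a1. Both are genes of the cAMP pathway that were higher in OGD/R, and Nr4a1 is a textbook target of CREB. The strands are minus for Pde7b and plus for the other two, and capitals mark TGACG or its reverse complement, the short form of the cAMP response element.
Pde7b, chr10:20548471-20548578: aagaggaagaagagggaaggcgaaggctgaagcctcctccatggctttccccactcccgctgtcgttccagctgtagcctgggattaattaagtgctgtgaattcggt
Pde4b, chr4:102421305-102421517: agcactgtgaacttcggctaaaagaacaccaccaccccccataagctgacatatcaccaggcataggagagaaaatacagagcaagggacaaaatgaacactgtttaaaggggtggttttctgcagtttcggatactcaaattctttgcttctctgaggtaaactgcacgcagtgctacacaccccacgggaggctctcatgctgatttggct
Nr4a1, chr15:101266596-101266845: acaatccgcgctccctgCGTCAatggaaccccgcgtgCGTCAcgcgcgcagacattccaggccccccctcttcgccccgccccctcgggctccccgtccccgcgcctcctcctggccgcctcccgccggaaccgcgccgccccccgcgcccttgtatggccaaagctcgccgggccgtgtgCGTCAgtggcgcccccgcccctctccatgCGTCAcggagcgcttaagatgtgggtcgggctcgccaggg
The full window of Pde7b held 0 copies of this short form and 0 of the whole element, TGACGTCA, which contains the short form on each strand. The first window of Pde4b held 1 short form, beyond the printed stretch, its other windows held 0, and the window of Nr4a1 held 4. Other genes of the pathway, described below, were searched too. Nr4a2 and Nr4a3, higher in OGD/R, held 4 each, and Rgs2, which was lower, held 2. The windows of Prkar2b, Adora2b and Pde1c, which were higher, and of Pde4d, which was lower, held 0. Of all 32851 windows of this length, 20.8% held the short form and 1.79% the whole element, on either strand. Of the 1004 windows of the table's genes, 23.1% and 1.99% did. The cores bound by hypoxia-inducible factors, ACGTG and GCGTG, were also at 0 in the window of Pde7b. They occur in 19.6% and 32.4% of all windows and in 22.2% and 43.0% of those of the table's genes. A match or its absence describes the letters of the reference in this window alone.

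Pde7b was low in control cells and several times higher after OGD/R. It stood at 1.22, 0.74 and 1.06 FPKM in the 3 control libraries and at 7.24, 7.25 and 6.05 FPKM in the 3 OGD/R libraries. The groups did not overlap, and the lowest OGD/R library lay far above the highest control. Control replicate 2 was the lowest of its group and OGD/R replicate 3 the lowest of the other. The means were 1.01 ± 0.244 and 6.85 ± 0.690 FPKM (SD, n = 3), a ratio of 6.80. On the log2(FPKM + 1) scale the limma estimate was 1.97 ± 0.13 (SE). The pseudocount of 1 shrinks the change of a gene this low: the estimate was 2.67 with a pseudocount of 0.1, and the log2 ratio of the plain means was 2.77. In bulk RNA, a change in the share of cells that express a gene and a change in its RNA per cell cannot be told apart.

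The depth behind these values was sought in the steps between low FPKM values, which are whole multiples of 1 counted unit. A unit is a read or a read pair, and which of them is not known. The smallest library sizes at which these values became whole were 7626980 to 8661810 units. With the exon length of 12444 nt, Pde7b had 116, 76 and 101 units in control and 724, 764 and 652 in OGD/R. Exact Poisson intervals at 95%, which cover counting error only, ran from 59.9 to 95.1 units for control replicate 2 and from 95.9 to 139 for control replicate 1. In OGD/R they ran from 603 to 704 for replicate 3 and from 711 to 820 for replicate 2. These intervals treat the units as independent and are not scaled for library size. On that basis the highest and the lowest library of each group did not overlap, by a small margin. If a unit is a single read of a pair, the intervals are too narrow, and this separation within the groups may not hold. The groups were much further apart.

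The place of Pde7b in the table depended on the measure. Of the 605 genes that were higher in OGD/R, 584 had a ratio of group means and 21 were listed at 0 in every control library. Pde7b ranked 64 among the 584 by this ratio, and 44 of the 63 genes above it had a mean under 1 FPKM over the 6 libraries. Among the 852 genes with a mean of at least 1 FPKM over the 6 libraries, it ranked 20 by the ratio and 18 by the limma estimate. The median ratio of the genes in that set that were higher was 2.47. By the plain difference of means in FPKM, Pde7b ranked 159 among those that were higher. Its control level ranked 772 of 852 and its OGD/R level 323, against medians of 4.76 and 4.50 FPKM. Among these 852 genes its level was thus near the low end in control and above the middle in OGD/R.

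The genes next to it in the order of ratios had very different levels. Just above were Arrdc4, an arrestin-domain gene that responds to glucose, with a ratio of 6.90, Haao, an enzyme of tryptophan breakdown, also 6.90, and Il1b, the cytokine interleukin-1 beta, with 7.11. Just below were Txnip (6.78), Tdrd5 (6.69) and Chst10 (6.29). Txnip, another glucose-responsive arrestin gene, reached 192 ± 27.2 FPKM in OGD/R (SD, n = 3). Il1b, Haao and Tdrd5 stayed under 1 FPKM in every library.

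**Figure D1:**
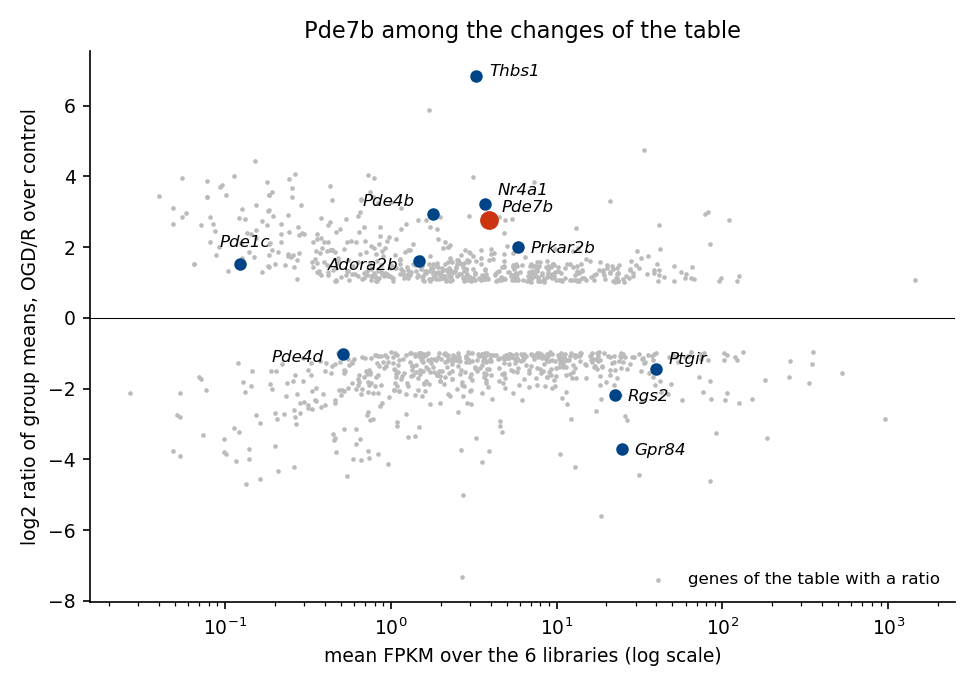
Each grey point is a gene of the table with values above 0 in both groups: the mean FPKM over the 6 libraries (log axis) against the log2 ratio of the group means, OGD/R over control. Pde7b (red) sits at a log2 ratio of 2.77, and other genes of the cAMP pathway are in blue. Of those labelled, Pde4b (2.93) and Nr4a1 (3.24) are nearest in ratio. Genes outside the pathway, such as Arrdc4 (2.79) and Txnip (2.76), lie nearer and are not labelled. The empty band around 0 shows that the table holds genes picked for a difference.

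Pde7b was 1 of 4 genes in the table out of 24 listed cyclic nucleotide phosphodiesterases; the other 20 are not analysed here. Pde4b, a cAMP-specific enzyme of immune cells and a target of rolipram, was at 0.48, 0.36 and 0.42 FPKM in control and at 3.55, 3.10 and 2.95 FPKM in OGD/R. It rose 7.62-fold in means (limma estimate 1.56 ± 0.11 SE, adjusted p = 7.9e-05). With a control mean of 0.420 FPKM, Pde4b passed the minimum of 1 FPKM only through the OGD/R group. Pde1c, stimulated by calcium and calmodulin and able to hydrolyse both cyclic nucleotides, was at 0.07, 0.05 and 0.07 FPKM against 0.20, 0.18 and 0.17, or 8 to 11 units against 30 to 32. Pde4d, the paralog of Pde4b, went the other way, with 0.66, 0.67 and 0.73 FPKM in control and 0.45, 0.30 and 0.27 in OGD/R. Both were below the expression minimum and not tested; without that minimum their limma adjusted p was 0.0084 and 0.0057. All 4 genes had groups that did not overlap, as did 94.9% of the table, so this separation is no mark of the family.

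**Figure D2:**
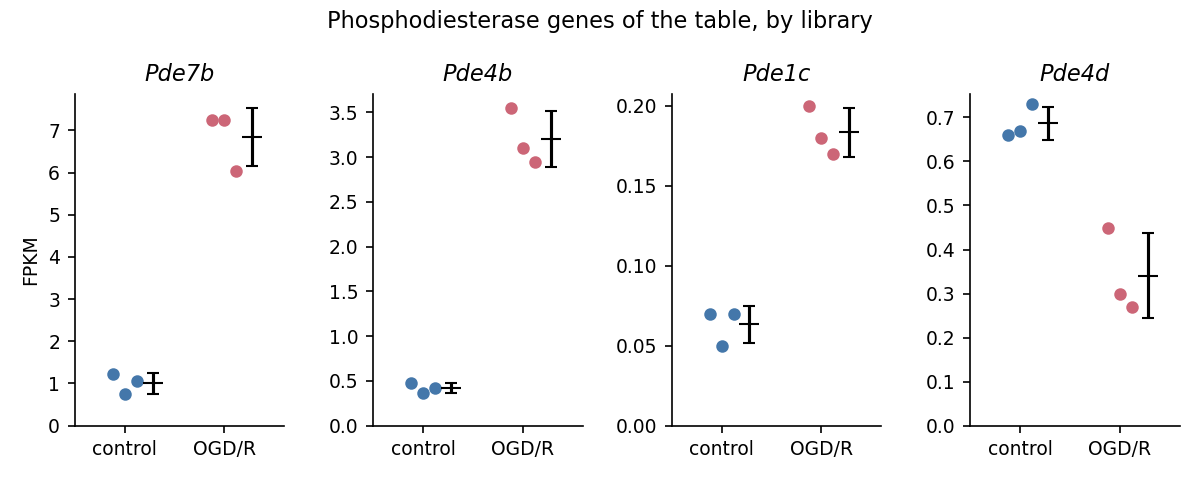
FPKM of the 4 phosphodiesterase genes in each library (points), with the mean and SD of each group of 3 beside them; each panel has its own axis from 0. Pde7b, Pde4b and Pde1c are higher in every OGD/R library than in any control library, and Pde4d is lower.

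Because FPKM is per length, levels of the 4 genes can be set side by side, within the limits of the lengths used. Their sum was 1.82 to 2.43 FPKM in control and 9.44 to 11.4 FPKM in OGD/R. Pde7b made up 50.2%, 40.7% and 46.5% of it in the control libraries and 63.3%, 66.9% and 64.1% in the OGD/R libraries. In control, Pde4d had a higher level than Pde4b, and in OGD/R the order was reversed. The ratio of Pde7b to Pde4b overlapped between the groups, at 2.06 to 2.54 in control and 2.04 to 2.34 in OGD/R. The level of each of the 4 genes rests on the length of all its exons together, and not on that of the transcripts present. For Pde7b this is 12444 nt, over which its level is lower than over the 4137 nt of its longest coding transcript. How far the other genes would change in the same way was not examined. The shares, the ratio of Pde7b to Pde4b and the order of Pde4b and Pde4d could therefore differ with other lengths. Phosphodiesterase genes outside the table are not in the sums.

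The rest of the cAMP pathway was taken from lists of cyclases, receptors, G protein regulators, effectors, CREB family members and targets. Besides Pde7b, 33 of the 234 listed genes were in the table and 25 were tested. Of these, 13 rose and 11 fell, and 1 was not called (limma, adjusted p under 0.05). Over all 852 genes tested, 97.3% were called, 46.6% higher and 50.7% lower, so the pathway's share of called genes was near that of the table. The median limma log2 fold change was 0.67 over the 25 genes and -0.68 over the table, where genes lie on both sides of an empty band around 0. The p-values do not account for the picking of the table's genes on these same samples. The minimum of 1 FPKM is a mean over both groups, so a gene low in either group can pass through the other. Pde4b, Adora2b, Cxcr4, Cx3cr1, Hcn2, Crem, Nr4a1, Thbs1 and Arg1 did so, with control means under 1 FPKM. Rgs3, P2ry13, Klf4 and Per2 did so with OGD/R means under 1 FPKM. The calls of these genes are subject to that selection.

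None of the 20 listed adenylyl and guanylyl cyclases was in the table, so the enzymes that make the nucleotides are not analysed here. Also none of 18 phosphodiesterases outside the cyclic nucleotide family was there. Of 32 receptors coupled to Gs, 5 were in the table and 3 were tested, of which 2 rose and 1 fell. Adora2b, a receptor for adenosine, rose from 0.737 ± 0.0379 to 2.23 ± 0.124 FPKM (mean ± SD of 3; adjusted p = 2.6e-04 in limma). Ptgir, the prostacyclin receptor, was the most abundant of the listed receptors named here and fell from 57.9 ± 2.76 to 21.4 ± 0.470 FPKM, a limma estimate of -1.39 (adjusted p = 7.6e-05). The melanocortin receptor gene Mc1r, at 0.19 FPKM or less in every library, was not tested.

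Of 34 receptors that couple to Gi, 7 were in the table and 5 were tested, of which 2 rose and 3 fell. Gpr84, which senses fatty acids of medium length, fell with a log2 fold change of -3.38. The complement receptor gene C3ar1 fell from 33.2 ± 1.44 to 14.2 ± 0.886 FPKM (SD, n = 3), and the purine receptor gene P2ry13 fell with -0.53. The chemokine receptor genes Cxcr4 and Cx3cr1 rose with 1.35 and 1.01. P2ry12, another purine receptor gene, was at 0.530 ± 0.108 and 1.25 ± 0.324 FPKM and was not tested. Ffar2, a receptor for short-chain fatty acids, was listed at 0 in all OGD/R libraries and at 0.19 to 0.30 FPKM in control.

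Regulators of G protein signalling, which speed the return of G proteins to the inactive state, gave 2 falls among 3 tested genes. Rgs2 fell from 29.13, 39.26 and 41.75 FPKM in control to 7.00, 7.88 and 9.45 in OGD/R, to a level 4.53 times lower in means (limma estimate -2.04 ± 0.17 SE, adjusted p = 1.2e-04). Rgs3 fell with -0.60. Rgs1 overlapped between the groups, with control replicate 1 at 3.74 FPKM and the other two controls at 11.33 and 11.44. Its limma adjusted p was 0.095. It was called without control replicate 1 (adjusted p = 0.0061) and with median-ratio scaling (0.039), and its adjusted p ran from 0.0061 to 0.25 over the settings tried.

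Among the 47 listed effectors and anchoring proteins, 4 were in the table and 3 were tested. Prkar2b, a regulatory subunit of protein kinase A that holds the catalytic subunits inactive until cAMP binds, was at 2.11, 2.62 and 2.30 FPKM in control and at 10.43, 8.54 and 9.35 FPKM in OGD/R. It rose 4.03-fold in means (limma estimate 1.64 ± 0.12 SE, adjusted p = 7.9e-05). No listed catalytic subunit was in the table. Hcn2, a channel modulated by cyclic nucleotides, rose from 0.957 ± 0.165 to 2.29 ± 1.07 FPKM (mean ± SD of 3; adjusted p = 0.024 in limma), with 1.37 FPKM in OGD/R replicate 3 and 3.47 in replicate 1. It was not called without control replicate 2 or without control replicate 3 (limma adjusted p = 0.060 and 0.069; the settings tried gave 0.0065 to 0.069). Rapgef2, an exchange factor for the GTPase Rap, fell from 4.88 ± 0.803 to 1.74 ± 0.0954 FPKM. A further regulatory subunit gene, Prkar1b, was at 0.253 ± 0.134 and 0.650 ± 0.308 FPKM and was not tested.

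Of 14 listed genes of the CREB family and its coactivators, 2 were in the table. Crem, which encodes activators and repressors of cAMP-responsive genes, rose from 0.953 ± 0.345 to 2.13 ± 0.741 FPKM (mean ± SD of 3). The limma estimate was 0.67, with an adjusted p of 0.019. Without control replicate 1 it was not called (limma adjusted p = 0.054, in a range from 0.0051 to 0.054 over the settings tried). Creb3, a membrane-bound family member of the endoplasmic reticulum, fell from 14.1 ± 0.240 to 7.04 ± 0.729 FPKM.

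Genes reported elsewhere as induced by cAMP moved both ways. Of 32 listed, 13 were in the table and 11 were tested, of which 7 rose and 4 fell, with a median log2 fold change of 0.79. Over all genes tested, 46.6% were called higher and 50.7% lower, and the median was -0.68. With an empty band around 0, such a median can shift with a few genes. Pde4b, Crem, Rgs2 and Pde4d, described above, are on this list too, and Pde4d was lower in OGD/R but not tested. The nuclear receptor genes Nr4a1 and Nr4a2 rose, at limma estimates of 2.16 and 1.05, and Nr4a3, listed at 0 in every control library, was at 0.06 to 0.10 FPKM in OGD/R. The estimates were 2.83 for the matrix gene Thbs1, 1.41 for the phosphatase gene Dusp5 and 0.79 for the arginase gene Arg1, which all rose. Ptgs2, which encodes cyclooxygenase-2, the transcription factor gene Klf4 and the clock gene Per2 fell with -1.55, -1.48 and -0.69.

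**Figure D3:**
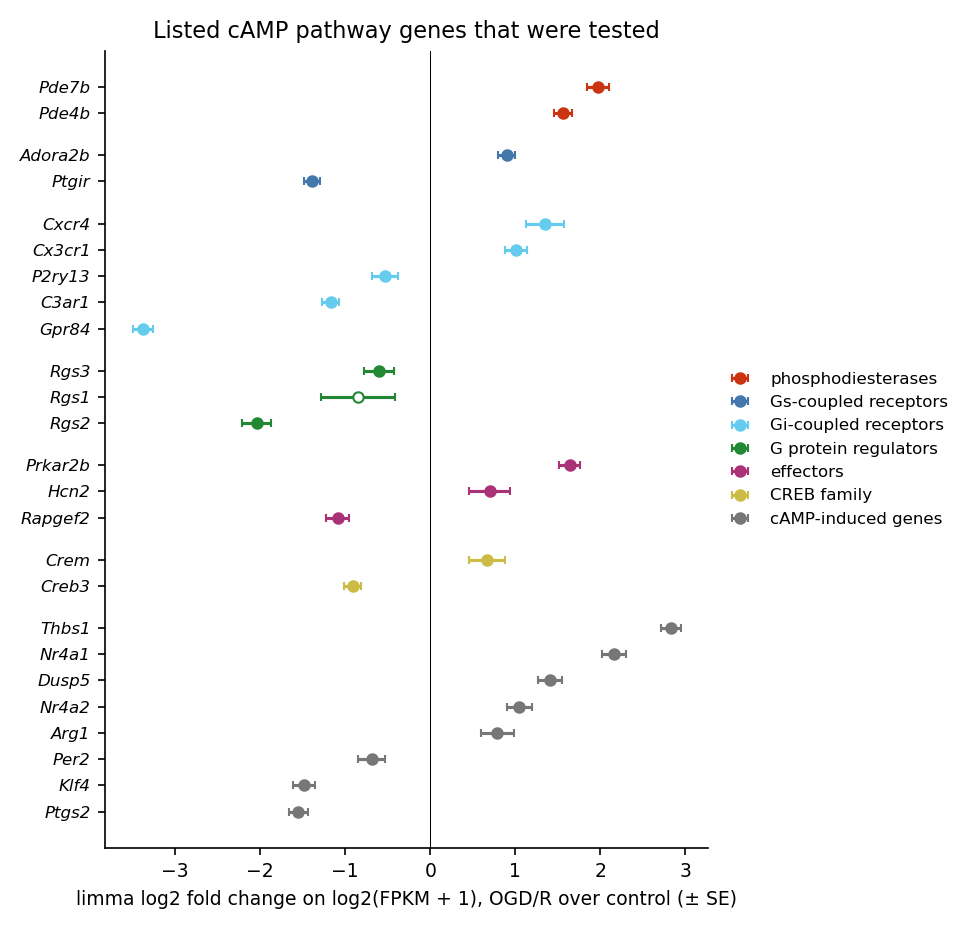
Limma log2 fold change on the log2(FPKM + 1) scale, OGD/R over control, with its SE, for 25 of the 26 tested genes of the cAMP lists, each shown once and coloured by role; Rgs1 (open circle) was not called. Pde7b, Pde4b and Prkar2b lie to the right at 1.97, 1.56 and 1.64, and Rgs2 to the left at -2.04. Thbs1 (2.83) and Nr4a1 (2.16) lie further right, and Gpr84 (-3.38) lies further left. The value of Pde7b is a description, since the gene was chosen for it.

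The genes most like Pde7b were sought by the root mean square difference, over the 6 libraries, of log2(FPKM + 1) values centred on each gene's mean. Among genes with a symbol other than a clone or model name, the nearest were Arrdc4 (difference 0.128), mt-Tt (0.129), Clec7a (0.160), Cytip (0.168), Deptor (0.181) and Tgm2 (0.183). Clec7a encodes the beta-glucan receptor dectin-1, Cytip a cytohesin-binding adaptor of immune cells named in the title of the series, Deptor an inhibitor of the kinase mTOR, and Tgm2 a transglutaminase. Cytip was at 1.39, 1.08 and 0.82 FPKM in control and at 7.35, 8.83 and 7.70 FPKM in OGD/R, so its range overlapped that of Pde7b in control and lay just above it in OGD/R. The mitochondrial tRNA gene mt-Tt reached only 9 units in each control library and 30 to 42 in OGD/R. Pde4b stood at place 8 (0.222) and Nr4a1 at place 10 (0.241). These 6 names depend on the measure: with a pseudocount of 0.1, 2 of them, Arrdc4 and Cytip, were again among the nearest 6, and Pde4b came first. By Pearson correlation over the same libraries, 0 of them were.

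**Figure D4:**
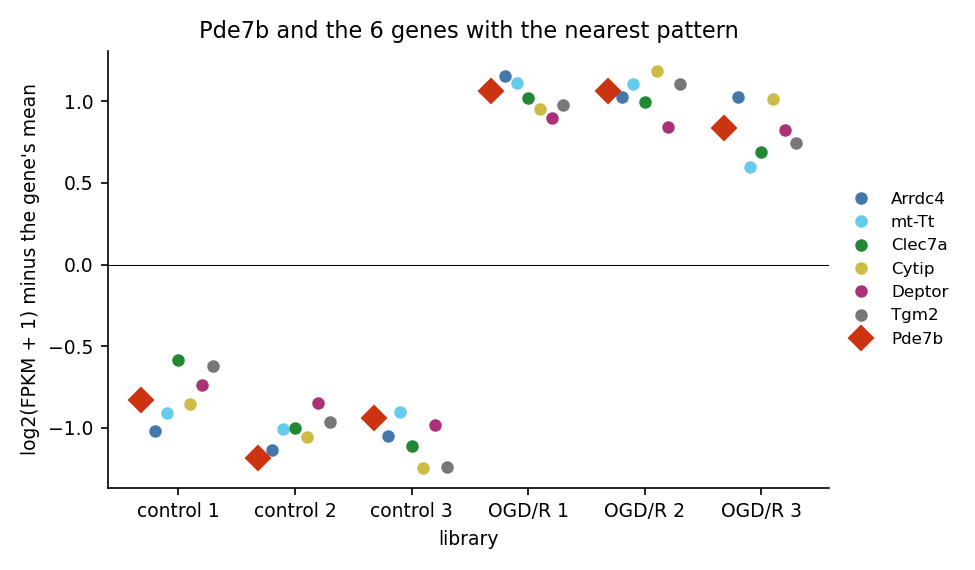
Values of log2(FPKM + 1) minus the gene's own mean over the 6 libraries, for Pde7b (red diamonds) and the 6 nearest genes (circles, set side by side within each library). All 7 genes are below their mean in the 3 control libraries and above it in the 3 OGD/R libraries. This follows from choosing the 6 for their likeness to Pde7b in these libraries. In the table, 594 of 1228 genes were higher in every OGD/R library than in any control library.

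Near Pde7b on chromosome 10, the table held 1 of the 45 other annotated genes within 1 Mb. This was Mtfr2, a mitochondrial fission regulator on the opposite strand, 36700 nt away. It rose from 2.87, 4.87 and 4.17 FPKM to 10.13, 10.60 and 15.10 FPKM (limma estimate 1.38 ± 0.21 SE, adjusted p = 8.4e-04). The pseudogenes Gm17229 and Gm17230 lie inside the span of Pde7b and share 0 nt with its exons.

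The cell type could not be checked, since the table holds genes picked for a difference, and absence from it does not show that a gene was not expressed. Of 16 listed microglial and macrophage markers 2 were in the table, Cx3cr1 and P2ry12, both at 1.99 FPKM or less in every library. Of 43 listed markers of other cell types 3 were there, all lower in OGD/R: Tubb3 at 0.787 ± 0.334 and 0.190 ± 0.185 FPKM, Cspg4 at 0.09 FPKM or less, and Vwf at 3.66 ± 0.645 and 1.44 ± 0.321 FPKM (SD, n = 3). No marker of astrocytes, lymphocytes or granulocytes was in the table. Their part in the higher level of Pde7b was not tested.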

How the data were processed

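RNA of 3 control and 3 OGD/R samples of Bv2 cells was sequenced in pairs of 150 nt reads from 1 ug of RNA, per the labels' protocols. The authors deposited FPKM values for 1228 genes, printed to 2 decimals, for the genome build GRCm38 (submitters' processing notes). For the alignment, the counting, the use of strand and the picking of the genes, no method is given in the sources used here.

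Genes with a mean of at least 1 FPKM entered limma 3.58.1 (R 4.3.3) as log2(FPKM + 1) values (group as the only factor, eBayes with trend, two-sided), adjusted by Benjamini-Hochberg over 852 genes at 0.05. The fit was run on simulated data in which most genes did not differ. That setting is unlike this table of picked genes, so it does not show how the fit behaves here. Library sizes in counted units were those at which FPKM values under 15 units became whole, within rounding plus 0.03 units, given exon lengths of GENCODE M21, which placed 1227 of 1228 genes. The smallest fitting size in the range searched was taken, since its multiples make the values whole too. Of the values used, 97.2% to 100% were whole. The sizes were chosen to make these values whole, so this share is no independent check of them.

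Pde7b and the gene lists were chosen with earlier results of these data known. In each list up to 6 tested members with the largest fold change were named, all where 6 or fewer were in the table, and with them the 6 genes most like Pde7b, 3 on each side of it in the order of ratios, and table genes within 1 Mb. The other listed genes (Arg1, Dusp5, Ffar2, Nr4a2, Nr4a3, P2ry12, Per2) and the cell type markers were named after their values were seen. Motifs were searched with Python 3.11.15 and pandas 2.3.3, and figures drawn with matplotlib 3.10.9. Alternatives changed the pseudocount, the minimum FPKM, the scaling, the eBayes settings and the replicate block, left out each library, and replaced FPKM by recovered units with voom. This naming rule was not kept in the list of receptors coupled to Gs, where some members are counted but not reported singly here.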

Additional observations from a re-analysis of the deposited data

How the results depend on the processing

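The estimate for Pde7b was 1.97 and ranged from 1.87 to 2.05 when single replicates were left out. A pseudocount of 0.1 gave 2.67, one of 0.01 gave 2.78 and voom gave 2.79 on the recovered units, an alternative added after seeing the data. These scales shrink a low gene less. With a minimum of 5 FPKM Pde7b was not among the genes tested, and fewer genes were tested: 409 were called (188 higher and 221 lower), of the cAMP lists 8 (2 and 6), against 829 (397 and 432) and 24 (13 and 11). The rank of Pde7b by the estimate was 18, and 15 to 24 over the settings. The 6 genes most like Pde7b shared 2 with those at a pseudocount of 0.1 and 0 with those by Pearson correlation. For 31 of the 34 other tested genes named, neither the sign nor the call changed in any of the 16 settings that tested them. The calls of Rgs1, Crem and Hcn2 changed. With the replicate number as a block, 835 genes were called and the estimate for Pde7b was 1.97. The deviations from the group means had correlations of 0.428, -0.349 and 0.375 between libraries with the same number. Control replicate 1 also correlated with OGD/R replicate 2 (0.451) and was opposed to OGD/R replicate 3 (-0.628). Control replicates 2 and 3 correlated best with OGD/R replicate 3 (0.479 and 0.375). Deviations from a mean of 3 libraries depend on each other, so these values cannot decide whether samples of the 2 groups belong together. Depth limits the lowest genes: Nr4a3 had 3 to 5 units per OGD/R library and Mc1r 0 to 6 over all libraries.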
